A study of Homo sapiens with 6 samples.

Results

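The small nucleolar RNA (snoRNA) host genes were followed after knockdown of AKR1B10, an aldo-keto reductase, in PC9-BrM3 cells. Their rows were taken from the gene table by symbol, as SNHG followed by a number, GAS5, DANCR, ZFAS1 or EPB41L4A-AS1, without use of any measured value. The rule found 29 of 58735 rows, under 28 symbols, since SNHG28 named 2 rows. PC9-BrM3 is a brain-metastatic derivative of the human lung adenocarcinoma line PC9. Cells carrying the shAKR1B10 lentiviral vector (BrM3-shAKR1B10, labelled AKR1B10 knockdown, 3 libraries) were compared with cells carrying the negative control vector (BrM3-shNC, labelled WT, 3 libraries). Both groups were in routine culture, in RPMI1640 with serum. The comparison asks how the transcriptome of these cells changes when AKR1B10 is silenced. It rests on 1 cell line and 1 short hairpin RNA, and the control cells carry a vector too. The labels do not say whether the 3 libraries of a group came from separate cultures, so p-values measure only the spread between these libraries, which may be technical.

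A snoRNA host gene is a long transcript whose introns release snoRNAs when it is spliced. The snoRNAs, of the C/D box and H/ACA box classes, guide the chemical modification of ribosomal RNA, and the related small Cajal body RNAs (scaRNAs) guide that of spliceosomal RNA. The spliced exons left behind are often untranslatable, and several of them, GAS5 among the best known, are degraded by nonsense-mediated decay (NMD) as ribosomes read them. Poly-A selected RNA-seq, as used here, measures mainly those spliced exons and not the snoRNAs.

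Reads on genes numbered 16964504 to 18709028 per library. Levels are in FPKM, fragments scaled to gene length and library size, as the authors deposited them. The library sizes recovered from these values followed median-of-ratios size factors (largest deviation 2.8e-06%), not the reads on genes. A level below 1 FPKM in a gene of ordinary length rests on few reads. AKR1B10 itself stood at 108, 107 and 110 FPKM in BrM3-shAKR1B10, against 799, 775 and 772 FPKM in BrM3-shNC, and its log2 fold change was -2.85 (limma with Benjamini-Hochberg adjustment, adjusted p = 1.6e-07). The keratins and CDH1 of an epithelial line were abundant, with 6 of 8 epithelial markers above the filter, but the lung lineage markers NKX2-1 and NAPSA were under 1 FPKM in both groups. The summed epithelial markers ran from 3168 to 3254 FPKM in BrM3-shAKR1B10 and from 2986 to 3349 FPKM in BrM3-shNC. The summed markers of other cells stayed low: 5 fibroblast markers at 1.20 to 1.35 against 2.03 to 2.05 FPKM, with COL1A2, DCN and LUM at 0 in every library, 4 leukocyte markers at 0.931 to 1.01 against 1.02 to 1.36 FPKM, and 4 markers of glia and neurons at no more than 0.185 FPKM. The 3 endothelial markers summed to 2.10 to 2.37 against 1.52 to 1.79 FPKM. Of these other-cell markers 2 were tested and both were called, COL1A1 lower (-0.67) and CDH5 higher (0.65), and their part in the results was not tested. In such bulk libraries fewer cells of a kind and less RNA per cell cannot be told apart.

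The summed FPKM of the host genes differed by less than the spread between libraries, while 6 single members differed by modest amounts. Summed over all rows they reached 325 ± 2.46 FPKM after knockdown and 324 ± 11.4 FPKM in the control cells (SD, n = 3 each). As a share of the reads of a library they made up 0.0923 to 0.0938% after knockdown and 0.0880 to 0.0913% in the control cells, ranges that did not overlap. Of the 29 rows, 23 had a mean of at least 1 FPKM and were tested among 13150 genes, and 6 lay below that filter. GAS5, EPB41L4A-AS1 and SNHG5 were higher in BrM3-shAKR1B10 and SNHG3, SNHG4 and SNHG15 were lower, each at an adjusted p under 0.05. That made 3 of 23 higher beside a background of 19.4% of all genes tested, and 3 of 23 lower beside 23.1%. No member also passed the absolute log2 fold change of 0.5 that the study required of a differential gene, where the background was 5.83% higher and 7.45% lower. With that 0 stand 9 members at an unadjusted p under 0.05 in limma, and likewise 0 called when voom was run on the recovered reads.

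Across the 23 members the log2 fold changes ran from -0.44 to 0.49 with a median of -0.04, against a median of -0.01 over all genes tested, and 13 lay below 0 and 10 above. The median absolute log2 fold change was 0.15 for the members and 0.20 for all genes tested. In 9 of 23 members the libraries of the groups did not overlap, against 54.7% of all genes tested. Other noncoding genes are the nearer comparison in biotype: of 1159 tested, 25.2% passed the adjusted p and 17.0% also passed the fold change threshold, with a median absolute log2 fold change of 0.31. Of the 17 members that missed the adjusted p, 12 had a 95% interval of the log2 fold change wholly between -0.5 and 0.5.

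**Figure D1:**
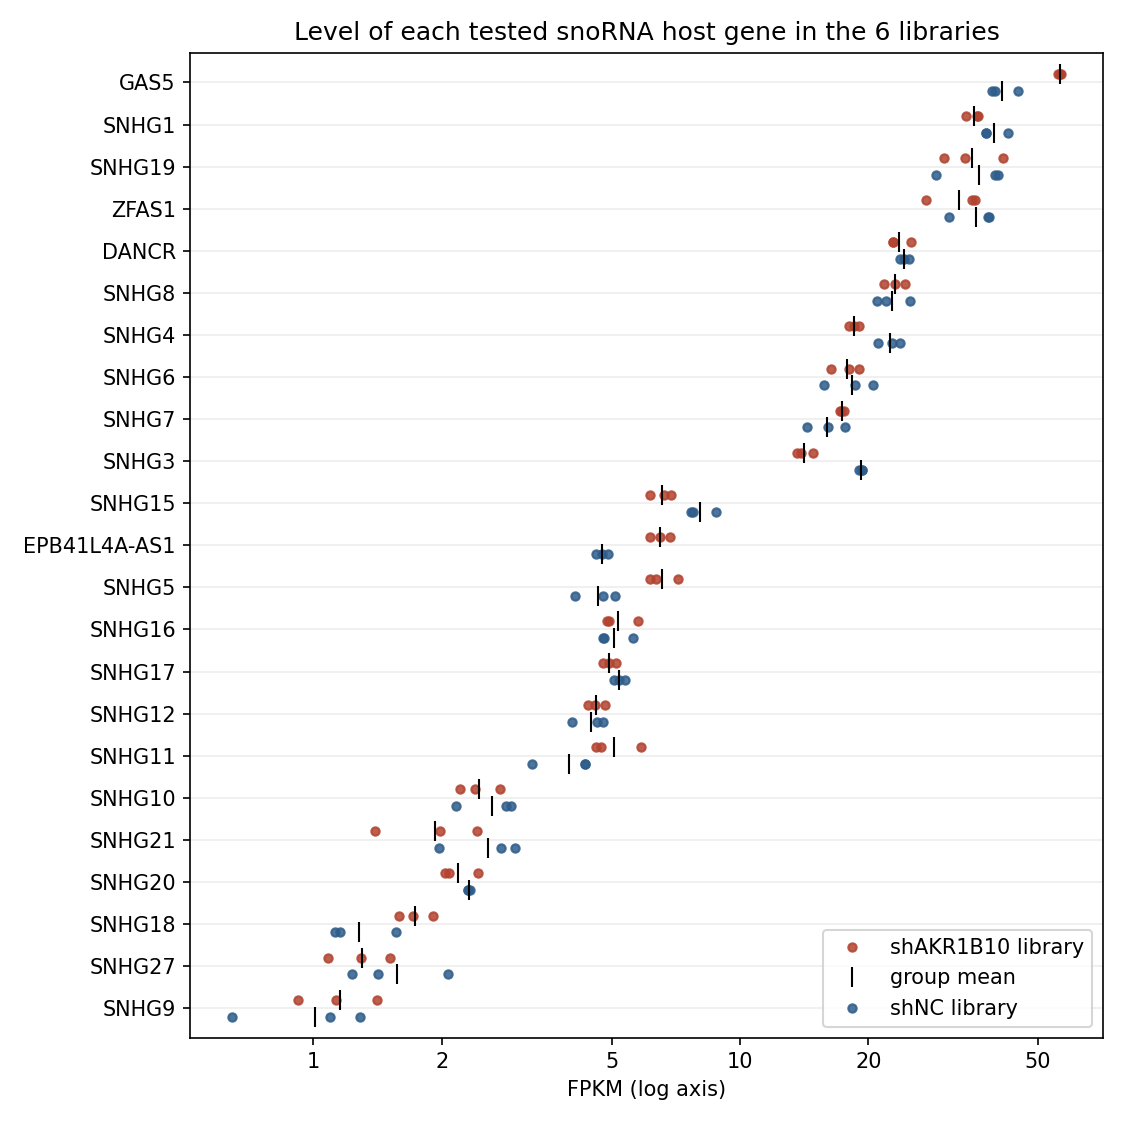
FPKM of the 23 tested snoRNA host genes (log axis), 1 point per library, with BrM3-shAKR1B10 in red, BrM3-shNC in blue and the group means as black ticks. The levels span from about 1 FPKM in SNHG9 to 56.2 FPKM in GAS5. The red and blue points do not overlap in GAS5, SNHG3, SNHG4, SNHG15, EPB41L4A-AS1 and SNHG5, nor in SNHG1, SNHG11 and SNHG18, which missed the adjusted p.

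**Figure D2:**
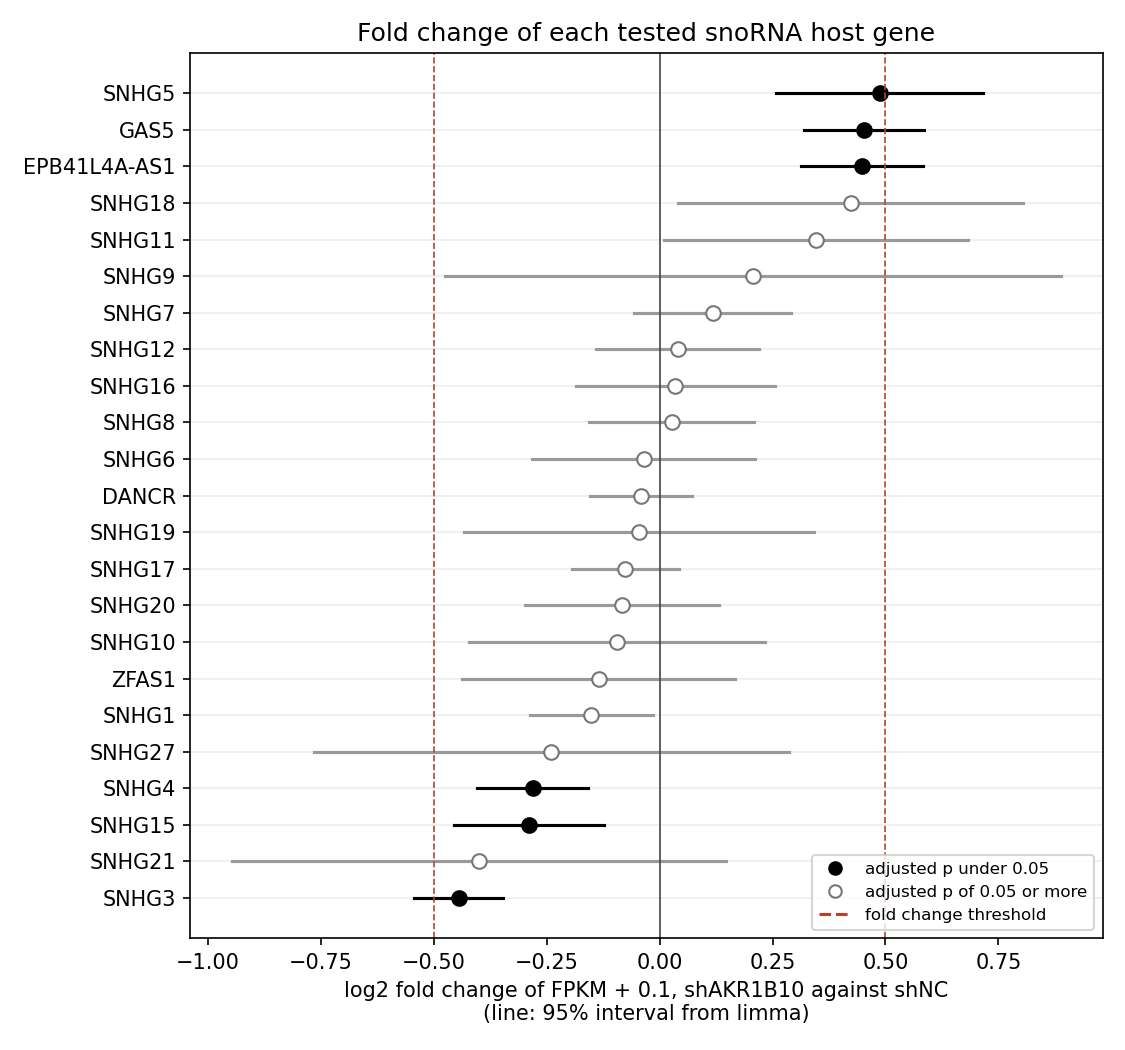
Log2 fold change of each tested snoRNA host gene, BrM3-shAKR1B10 against BrM3-shNC, with its 95% interval from limma, filled where the adjusted p was under 0.05. The 3 filled points on the right lie between 0.45 and 0.49 and the 3 on the left between -0.44 and -0.28, all inside the dashed lines at 0.5 and -0.5.

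GAS5 (growth arrest-specific 5, ENSG00000234741, chromosome 1, 173863900 to 173868882, minus strand) was the most abundant member. It has been studied as a decoy of the glucocorticoid receptor, and it accumulates when growth or translation stops. The knockdown libraries gave 55.6, 56.6 and 56.3 FPKM, and the control libraries gave 44.8, 39.6 and 38.9 FPKM. Every knockdown library lay above every control library, and the control libraries were the more scattered. The means were 56.2 ± 0.541 and 41.1 ± 3.19 FPKM (SD, n = 3 each), for a log2 fold change of 0.45 (SE 0.0558, 95% interval 0.32 to 0.59, limma with Benjamini-Hochberg adjustment, adjusted p = 0.00105). GAS5 made up 17.0, 17.6 and 17.3% of the summed FPKM of the members in BrM3-shAKR1B10 and 13.3, 12.3 and 12.4% in BrM3-shNC. Without the highest control library, replicate 1, its log2 fold change was 0.51 (limma with Benjamini-Hochberg adjustment, adjusted p = 2.1e-04), past the fold change threshold.

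EPB41L4A-AS1 (ENSG00000224032, chromosome 5, 112160526 to 112164276, plus strand), a noncoding RNA antisense to EPB41L4A that hosts SNORA13, stood at 6.87, 6.15 and 6.51 FPKM in BrM3-shAKR1B10. In BrM3-shNC it stood at 4.74, 4.90 and 4.59 FPKM. The groups were clear of each other, at 137% of the control mean. The log2 fold change was 0.45 (SE 0.0565, limma with Benjamini-Hochberg adjustment, adjusted p = 0.00115). Of its exonic bases, 49.6% are shared with a gene on the opposite strand, mostly EPB41L4A, a membrane-cytoskeleton protein of the band 4.1 family. EPB41L4A was at 0.0197 ± 0.00669 and 0.0154 ± 0.00782 FPKM (SD, n = 3 each), near 0 in both groups.

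SNHG5 (ENSG00000203875, chromosome 6, 85660950 to 85678748, minus strand), the host of the SNORD50 C/D box snoRNAs, had the highest fold change of the tested members. The values were 7.16, 6.36 and 6.15 FPKM after knockdown, against 5.11, 4.76 and 4.10 FPKM in the controls, with no overlap. The log2 fold change was 0.49 (SE 0.0956, 95% interval 0.26 to 0.72, limma with Benjamini-Hochberg adjustment, adjusted p = 0.00724), resting on 210 to 355 reads per library. SNHG5 passed the fold change threshold without BrM3-shAKR1B10 replicate 2 (0.51) or 3 (0.53), or without BrM3-shNC replicate 1 (0.56) or 2 (0.51), and in TPM (0.53).

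SNHG3 (ENSG00000242125, chromosome 1, 28505980 to 28510892, plus strand) had the lowest fold change. It hosts SNORA73A and SNORA73B, the H/ACA box RNA also called U17, which acts in the cleavage of the ribosomal RNA precursor. Knockdown libraries read 13.6, 13.9 and 14.8 FPKM, and control libraries 19.0, 19.3 and 19.3 FPKM. The control libraries were almost level, and the knockdown libraries all lay below them, at 73.4% of the control mean. The log2 fold change was -0.44 (SE 0.0412, limma with Benjamini-Hochberg adjustment, adjusted p = 3.2e-04) and stayed between -0.48 and -0.42 with any 1 library left out.

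SNHG4 (ENSG00000281398, chromosome 5, 139274102 to 139284899, plus strand), a host of H/ACA box snoRNAs, read 18.0, 19.0 and 18.5 FPKM in BrM3-shAKR1B10, against 23.8, 21.1 and 22.7 FPKM in BrM3-shNC. Its groups did not overlap, and the log2 fold change was -0.28 (SE 0.0513, limma with Benjamini-Hochberg adjustment, adjusted p = 0.00536). SNHG15 (ENSG00000232956, chromosome 7, 44983023 to 44986961, minus strand), the host of SNORA9 and a short-lived transcript, read 6.89, 6.65 and 6.17 against 7.67, 8.77 and 7.75 FPKM. It was lower in every knockdown library, with a log2 fold change of -0.29 (SE 0.0694, limma with Benjamini-Hochberg adjustment, adjusted p = 0.0156). SNHG15 was the least firm of the 6, since its adjusted p reached 0.0495 with 1 library left out.

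SNHG1, SNHG11 and SNHG18 also had groups that did not overlap, but each missed the adjusted p. SNHG1, which hosts a run of C/D box snoRNAs, stood at 36.0, 36.2 and 33.9 FPKM in BrM3-shAKR1B10 against 42.6, 37.8 and 37.7 FPKM, which gave a log2 fold change of -0.15 (limma with Benjamini-Hochberg adjustment, adjusted p = 0.0720). SNHG11, which hosts SNORA60 and SNORA71E, stood at 4.73, 5.87 and 4.59 against 3.25, 4.33 and 4.32 FPKM, at 0.35 (limma with Benjamini-Hochberg adjustment, adjusted p = 0.0904). Both were under 0.05 by voom with the same adjustment, at 0.0181 and 0.0274. SNHG18, the host of SNORD123, stood at 1.71, 1.90 and 1.59 against 1.56, 1.12 and 1.15 FPKM, from 37 to 67 reads per library. Its log2 fold change of 0.42 had a limma adjusted p of 0.0736, and without BrM3-shNC replicate 1 it was 0.57 with a limma adjusted p of 0.0244 (Benjamini-Hochberg).

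The other abundant members differed by less than their spread. ZFAS1, a host of SNORD12 family snoRNAs first described in mammary gland, read 27.3, 35.5 and 35.1 FPKM in BrM3-shAKR1B10, against 38.1, 30.9 and 38.3 FPKM in BrM3-shNC. SNHG19, the host of SNORD60, read 41.4, 30.1 and 33.6 against 39.7, 40.3 and 28.8 FPKM. In both genes 1 library of each group stood away from its replicates, and for SNHG19, whose row is 342 bases long, the coefficient of variation was 16.4 and 17.8% against 6.79% from read counting alone. DANCR, a transcript that holds back differentiation in progenitor cells, read 22.9, 22.9 and 25.1 against 23.8, 24.2 and 24.9 FPKM. SNHG8 read 23.1, 21.7 and 24.4 against 25.1, 22.0 and 21.0 FPKM. The 95% intervals of the log2 fold change ran from -0.15 to 0.07 for DANCR and from -0.16 to 0.21 for SNHG8, the narrowest bounds among these 4, and from -0.43 to 0.34 for SNHG19 and from -0.44 to 0.17 for ZFAS1.

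At 10 to 20 FPKM, SNHG6 (log2 fold change -0.04) and SNHG7 (0.12) had overlapping groups. Between 1 and 10 FPKM the C/D box host SNHG16 (0.03), the H/ACA box host SNHG17 (-0.08) and SNHG12 (0.04), which hosts both classes, lay near 0. The 3 tested scaRNA hosts, SNHG10 (-0.10), SNHG20 (-0.08) and SNHG21 (-0.40), all lay below 0, and none passed the adjusted p. SNHG21 was read at 26 to 57 reads per library and its 95% interval reached from -0.95 to 0.15. SNHG27 (-0.24) and SNHG9 (0.21), the latter at 6 to 14 reads per library, were near the filter. By the class of the small RNA rows inside them, the 10 tested hosts of H/ACA box snoRNAs alone had a median of -0.01 with 3 lower and 1 higher at the adjusted p, and the 7 tested hosts of C/D box snoRNAs alone had a median of -0.04 with 0 lower and 1 higher, beside 23.1% lower and 19.4% higher over all genes tested. GAS5, a known C/D box host that was higher, is in neither count, since the table has no snoRNA-named row within it. The difference between the classes was not tested.

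The 6 rows below the filter were near silent. SNHG25, the host of SNORD104, had 1 read in each BrM3-shAKR1B10 library and 4, 2 and 3 reads in BrM3-shNC, a ratio of 0.334 whose exact 95% counting interval was 0.0581 to 1.34. SNHG26 had 51 against 69 reads over the 3 libraries (ratio 0.740, interval 0.505 to 1.08), and SNHG22, the host of SCARNA17, had 10 against 16. SNHG14, the very long host of the Prader-Willi region snoRNA clusters, had 5 reads against 2. Of the SNHG28 rows, ENSG00000256029 had 54 against 52 reads and ENSG00000188004 had 0 in every library, with 100% of its exonic bases also inside another row. These intervals cover counting error only.

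Few reads were assigned to the snoRNAs themselves. The table holds 129 rows of snoRNAs or scaRNAs inside 25 of the members, 83 of them in SNHG14, and 110 were at 0 in all 6 libraries. Some of these rows overlap exons of their hosts, where the assignment of reads was not tested. A 0 there does not show that an RNA was absent. The 6 rows in SNHG1, which shares 576 exonic bases with other rows on its strand, were all at 0. Together the 129 rows had 130 to 156 reads per library, and 11 passed the filter. Of these, 0 were called by limma or voom, with 2 at an unadjusted p under 0.05 in limma. Over all genes tested 7.45% were called lower and 5.83% higher, so 0 among 11 rows says little. SNORA73B in SNHG3 had 12, 18 and 22 reads in BrM3-shAKR1B10 and 23, 23 and 23 in BrM3-shNC (limma with Benjamini-Hochberg adjustment, adjusted p = 0.118), in the same direction as its host. SNORA71B in SNHG17 had 20, 18 and 13 against 11, 10 and 14 reads (limma with Benjamini-Hochberg adjustment, adjusted p = 0.0536), while its host was flat at -0.08. Mature snoRNA and unspliced host RNA cannot be told apart in these reads.

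The snoRNAs of 3 of the hosts that passed the adjusted p are shown because they are what those genes are known to release. They are the GENCODE 29 sequences, on GRCh38. Capitals mark the ACA box (ACA within the last 9 bases) of H/ACA RNAs, or the C box (TGATGA) and D box (CTGA) of SNORD50B, searched on the transcribed strand alone. SNORA73A and SNORA73B share 192 of 206 aligned positions, 93.2%. SNORA73A and SNORD50B overlap exons of some host transcripts, and the others are intronic.
SNORA73A in SNHG3, chr1:28507366-28507571, plus strand: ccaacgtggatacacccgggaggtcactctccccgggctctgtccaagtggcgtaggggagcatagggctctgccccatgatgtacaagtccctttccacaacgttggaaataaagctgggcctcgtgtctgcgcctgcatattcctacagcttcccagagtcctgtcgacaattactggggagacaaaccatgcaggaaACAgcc
SNORA73B in SNHG3, chr1:28508559-28508762, plus strand: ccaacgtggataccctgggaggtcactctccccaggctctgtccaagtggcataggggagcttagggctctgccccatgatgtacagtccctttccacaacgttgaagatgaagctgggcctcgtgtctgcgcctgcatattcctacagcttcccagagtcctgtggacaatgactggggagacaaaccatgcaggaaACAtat
SNORA13 in EPB41L4A-AS1, chr5:112161485-112161617, plus strand: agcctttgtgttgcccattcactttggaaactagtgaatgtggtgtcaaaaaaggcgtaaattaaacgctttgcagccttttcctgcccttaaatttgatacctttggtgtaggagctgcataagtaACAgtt
SNORD50B in SNHG5, chr6:85677589-85677658, minus strand: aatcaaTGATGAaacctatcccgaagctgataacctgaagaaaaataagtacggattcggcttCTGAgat

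A further feature the selection did not use is the transcription start. Many RNAs of the translation machinery begin with a 5′ terminal oligopyrimidine (TOP) tract, a C followed by a run of C or T, through which their translation is tied to growth signals. A tract was defined as C at the first base and at least 4 more pyrimidines without a break. Of the 24 members whose RefSeq promoter entry was used, 6 (25.0%) had one: SNHG4, SNHG5, SNHG12, SNHG18, SNHG19 and ZFAS1. The share was 4.07% of all 35116 RefSeq promoters and 54.3% of 81 ribosomal protein promoters. At the RefSeq start of GAS5 there was none, but 6 of its 29 GENCODE transcripts began with one. Other members without a tract at the RefSeq start also had such GENCODE transcripts, 1 of 3 in SNHG3, 2 of 8 in SNHG16, and 1 each in SNHG1, SNHG8 and SNHG11. Of the members outside those 24, SNHG6 had 3 of 5 and SNHG25 had 2 of 2. Among members with a tract, SNHG5 was higher and SNHG4 lower at the adjusted p, and the remaining 4 did not pass it. Over all genes tested 19.4% were higher and 23.1% lower. EPB41L4A-AS1 had no such start in either source, and SNHG15, with no RefSeq entry here, had none in GENCODE. A match is a description of these letters only.

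The starts below are shown so that the tract can be compared between members that differed in opposite directions and members that were flat. Each holds 20 bases before the RefSeq start and 30 from it (GRCh38.p14), with the tract in capitals, except GAS5, which shows the first 30 bases of those 6 GENCODE transcripts.
GAS5, chr1:173867960-173867989, minus strand: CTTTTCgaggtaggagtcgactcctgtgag
SNHG5, chr6:85678704-85678753, minus strand: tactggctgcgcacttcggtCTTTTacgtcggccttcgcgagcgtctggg
EPB41L4A-AS1, chr5:112160506-112160555, plus strand: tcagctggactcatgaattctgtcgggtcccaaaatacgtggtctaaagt
SNHG3, chr1:28505923-28505972, plus strand: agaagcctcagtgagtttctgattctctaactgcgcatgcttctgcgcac
SNHG4, chr5:139274081-139274130, plus strand: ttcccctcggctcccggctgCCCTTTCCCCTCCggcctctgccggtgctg
ZFAS1, chr20:49278622-49278671, plus strand: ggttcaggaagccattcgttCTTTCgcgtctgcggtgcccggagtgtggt
SNHG19, chr16:2155329-2155378, minus strand: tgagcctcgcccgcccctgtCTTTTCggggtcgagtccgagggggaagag

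Several members share a promoter or exons with a coding gene, and the pairs were set side by side. RCC1, the guanine nucleotide exchange factor of Ran, overlaps SNHG3 on the same strand and shares 242 exonic bases with it. RCC1 read 19.7, 19.7 and 20.1 FPKM after knockdown, against 30.5, 32.8 and 32.3 FPKM in the controls. It fell by 0.68 on the log2 scale (SE 0.0377, limma with Benjamini-Hochberg adjustment, adjusted p = 4.3e-05), against the -0.44 of SNHG3. Of the exonic bases of SNHG3, 11.0% are shared with some other row, RCC1 and SNORA73A among them. The part of shared reads in its value was not tested. SNHG12, 67.6 kb away on the same chromosome, was at 0.04.

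SEMA5A, an axon guidance semaphorin whose start lies 125 bases from that of SNHG18 on the opposite strand, read 11.1, 10.5 and 10.3 FPKM after knockdown, against 3.97, 4.14 and 4.02 FPKM in the controls. It rose by 1.37 (SE 0.0465, limma with Benjamini-Hochberg adjustment, adjusted p = 1.1e-05), against 0.42 for SNHG18. ACAA2, a mitochondrial thiolase of fatty acid oxidation that starts 63 bases from SNHG22, fell from 6.76 ± 0.382 to 3.73 ± 0.0906 FPKM (SD, n = 3 each, log2 fold change -0.84, limma with Benjamini-Hochberg adjustment, adjusted p = 9.1e-05). SNHG22 had too few reads to follow. ZNFX1, an RNA helicase-like zinc finger gene 248 bases from ZFAS1, stood at 15.0 ± 0.0717 against 11.2 ± 0.545 FPKM (0.43, limma with Benjamini-Hochberg adjustment, adjusted p = 5.2e-04), whereas ZFAS1 was at -0.13.

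The other neighbours with starts within 1000 bases did not pass in the limma fit. ZBTB37, a zinc finger gene 800 bases from GAS5, had a log2 fold change of 0.47 (limma with Benjamini-Hochberg adjustment, adjusted p = 0.0509) at about 1 FPKM, close to the value of GAS5. It was under 0.05 with a pseudocount of 1 or 0.01, in TPM, by voom and without the trend. SLC3A2, the heavy chain of an amino acid transporter next to SNHG1, was at 0.13, TRAF7 next to SNHG19 at -0.08, and RPS2, a ribosomal protein gene next to SNHG9, at -0.10. By voom with the same adjustment, SLC3A2 (0.0222) and RPS2 (0.0476) were under 0.05. Of the genes that overlap a member on the other strand, FAM69B at SNHG7 was at -0.03, TRNAU1AP at SNHG12 at -0.10 and GLRX5 at SNHG10 at -0.08. Of 10 neighbours with such close starts, 7 were tested. SNHG4 lies within the span of MATR3 (ENSG00000280987), with which it shares 626 exonic bases. Both MATR3 rows had under 0.4 FPKM in every library, and 16.6% of the exonic bases of SNHG4 are shared with some other row. How reads on those bases were assigned was not tested. SIL1, which overlaps SNHG4 on the other strand, was at -0.08. SEC14L1, which overlaps SNHG20 on the same strand and shares exons with it, stood at 4.77 ± 0.120 against 5.91 ± 0.139 FPKM (SD, n = 3 each, -0.30, limma with Benjamini-Hochberg adjustment, adjusted p = 0.0023), whereas SNHG20 was at -0.08. MYO5B, a myosin motor gene that overlaps SNHG22 on the other strand, was at 0.30 (limma with Benjamini-Hochberg adjustment, adjusted p = 0.010). SNHG11 and SNHG17, 11.2 kb apart, were at 0.35 and -0.08.

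**Figure D3:**
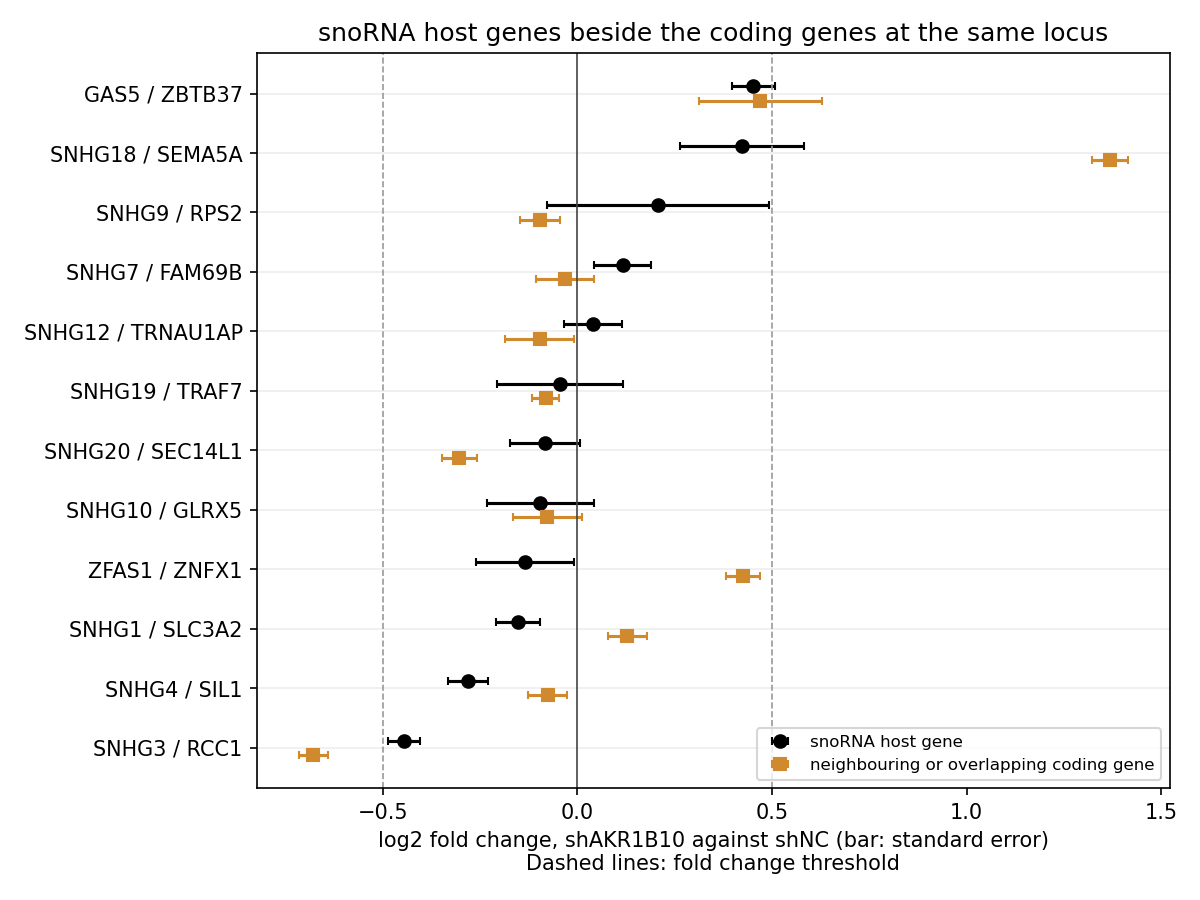
Log2 fold change of snoRNA host genes (black circles) and of the coding gene that neighbours or overlaps each (orange squares), BrM3-shAKR1B10 against BrM3-shNC, with standard errors. RCC1 lies at -0.68 beside SNHG3 at -0.44, SEMA5A at 1.37 beside SNHG18 at 0.42, and ZNFX1 at 0.43 beside ZFAS1 at -0.13.

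Protein-coding genes that carry a snoRNA or scaRNA in the annotation offered a second group of hosts. Of 163, 142 were tested, with 10 called lower and 0 higher, 45 lower and 19 higher at the adjusted p alone, and a median log2 fold change of -0.06, and voom called 10. Over all genes tested, 7.45% were called lower and 5.83% higher, and 23.1% were lower and 19.4% higher at the adjusted p. The 0 higher stands beside 81 at an unadjusted p under 0.05 in either direction. The 5 with the largest change were AIMP2, a scaffold protein of the aminoacyl-tRNA synthetase complex (-1.44), AMMECR1 (-0.88), NCAPD2, a condensin subunit (-0.87), UCHL5, a proteasomal deubiquitinase (-0.73) and RCC1. NCAPD2 hosts SCARNA10, and its level was 23.2 ± 0.319 against 42.5 ± 0.109 FPKM (SD, n = 3 each). The other 5 called were POLA1, NSD2, TMEM107, CKAP5 and TMEM167A. Among 4 tested of 20 other noncoding hosts 0 were called by limma or voom, with 2 at an unadjusted p under 0.05, and LRRC75A-AS1, at 82.0 ± 1.35 against 75.4 ± 3.11 FPKM, was higher at the adjusted p. Of 321 snoRNA and scaRNA rows elsewhere, 47 were tested and 2 called higher, SNORD63 and SNORD117, on a few reads per library, and neither was called in TPM, without a filter or with a pseudocount of 0.01.

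The proteins that bind and assemble snoRNAs were examined beside the same background of 23.1% lower and 19.4% higher at the adjusted p. Of the 8 snoRNP core proteins, all tested, 5 were lower and 0 higher at the adjusted p, with a median of -0.18, and 0 passed the fold change threshold in limma or voom. The 5, named after their values were seen, were FBL, the methyltransferase of C/D box particles (69.9 ± 2.08 against 90.8 ± 0.945 FPKM, -0.38), NOP56 (-0.29), NOP58 (-0.22), DKC1, the pseudouridine synthase of H/ACA box particles (-0.14), and NHP2 (-0.25). Summed, the core proteins gave 364 to 373 FPKM after knockdown, against 413 to 428 FPKM. Of 12 assembly factors, 11 were tested, and 5 were lower and 1 higher at the adjusted p, the last being ZNHIT6 (0.37), with a median of -0.07, and 0 called by limma or voom (6 at an unadjusted p under 0.05).

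The decay pathway that degrades several host transcripts was examined in the same way. Of 10 NMD factors, 2 were lower and 1 higher at the adjusted p, where the background was 23.1% and 19.4%, with a median of -0.06. UPF2, a partner of UPF1, was among those lower (6.66 ± 0.236 against 8.52 ± 0.0972 FPKM, -0.35), and SMG9 was the one higher (0.11). UPF1, the central helicase, was at -0.03. Of 5 exon junction complex proteins, which mark spliced RNA for that decay, RBM8A, MAGOH and CASC3 were lower at the adjusted p (background 23.1%), with a median of -0.15. Of 5 mRNAs known to be NMD-sensitive, 4 were tested and only ATF4 was higher at the adjusted p, at 168 ± 3.14 against 153 ± 1.81 FPKM (0.14), while GADD45A, GADD45B and TBL2 did not pass. In each of these 3 lists 0 were called by limma or voom, with 6, 3 and 1 genes at an unadjusted p under 0.05, and the genes were named after their values were seen.

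**Figure D4:**
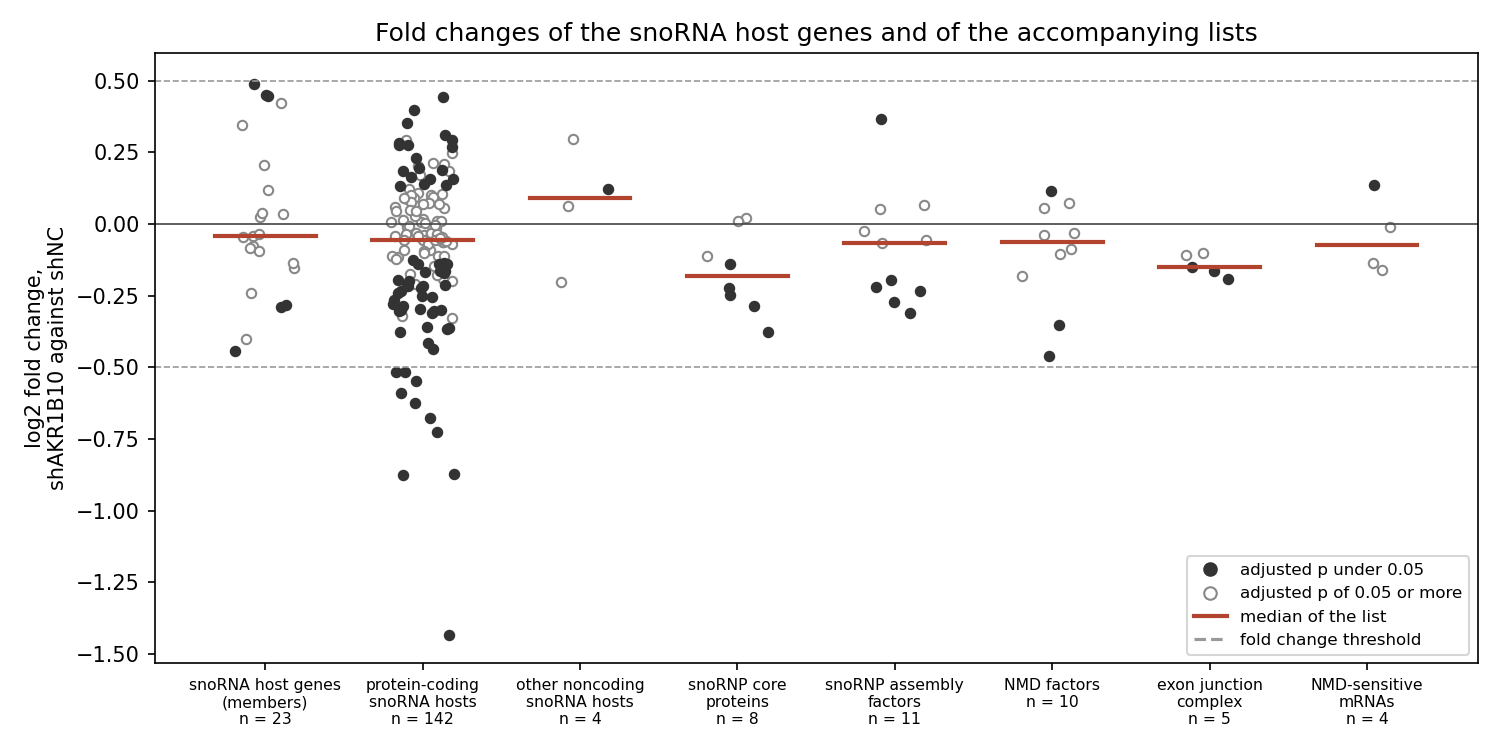
Log2 fold change of each tested gene, BrM3-shAKR1B10 against BrM3-shNC, in the snoRNA host genes and the accompanying lists, filled where the adjusted p was under 0.05, with the median of each list in red. The members lie on both sides of 0 within the dashed lines at 0.5 and -0.5, and among the other lists plotted only the protein-coding hosts have points beyond them, all on the lower side.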

How the data were processed

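RNA was poly-T purified and sequenced in 3 BrM3-shAKR1B10 and 3 BrM3-shNC libraries. Per the study's methods, reads were aligned with HISAT2 (v2.0.5) with counting by featureCounts (v1.5.0-p3), and the authors deposited FPKM per gene. The strand setting of the counting and the genome build were not given in the sources used here, but all 58735 rows match GENCODE 29 (GRCh38). The deposited FPKM values give whole reads in 100% of values below 1000 reads per library (tolerance 0.02 of a read), with 16964504 to 18709028 reads on genes per library, and 3 reads correspond to 0.163 to 0.177 FPKM in a gene of 1 kb. Intervals on reads cover counting error only.

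The main test was limma 3.58.1 (R 4.3.3), with an intensity trend, on log2(FPKM + 0.1), over the 13150 genes with a mean of at least 1 FPKM, with Benjamini-Hochberg adjustment, two-sided. Fold changes are on that log2 scale, which understates those of low genes. Calls needed an adjusted p below 0.05 together with a log2 fold change beyond 0.5 in either direction. The study used a count test. FPKM are not counts, so voom on the recovered reads was run as an alternative. On simulated data with the same dispersion for every gene and 200 genes changed 2-fold, 180 were called with the right sign and 8 unchanged genes were called. In the real data 42.5% of genes tested passed the adjusted p, and member log2 fold changes ran only from -0.44 to 0.49. The simulation therefore does not give the power to call a member. Other alternatives were pseudocounts of 1 and 0.01, no filter, a filter of 5 FPKM, TPM, median-of-ratios scaling, no trend, a replicate block, a fold threshold of 1 and leaving out each library. The deposited values already carried median-of-ratios scaling, so that alternative could change little. The adjusted p alone was added as a call after seeing the data.

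The named genes were AKR1B10, every member with a mean of at least 1 FPKM, with values in every library for those called or above 20 FPKM, the others by name and count (the per-library values of members that passed the adjusted p alone, or whose groups did not overlap, were added after seeing the data), tested neighbours, and in each list the called genes up to 5. Members and lists were chosen with earlier results of these data known. Sequences are from RefSeq (GRCh38.p14, entries of 24 of 28 symbols used, chromosome 8 being left out for the members) and GENCODE 29. RCC1, SEC14L1 and some other rows share exons with members on the same strand, which no strand setting could separate. Other rows share exons with members on the opposite strand, where the missing strand setting matters. How reads on shared bases were assigned was not tested. Some single values and sequences are not reported here.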

Additional observations from a re-analysis of the deposited data

How the results depend on the processing

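Among the 23 members, 334 of 337 recomputed fold changes stayed on their side of the adjusted p threshold, and 324 kept their sign, the changes of sign all being in members that missed that threshold. The 3 others passed it (SNHG1 and SNHG11 by voom, SNHG18 without BrM3-shNC replicate 1). Members called numbered 1 lower without a filter (SNHG25) and 1 higher in TPM (SNHG5), and 0 to 3 higher with 1 library left out, the 3 (GAS5, SNHG5 and SNHG18) without BrM3-shNC replicate 1. With the adjusted p alone, 3 members were lower and 3 higher, as were 3044 and 2548 of all genes, 45 and 19 protein-coding hosts, 5 and 0 snoRNP core proteins, 5 and 1 assembly factors, 2 and 1 NMD factors, 3 exon junction proteins (lower), 1 NMD-sensitive mRNA and 1 other noncoding host (higher), and 3 snoRNA rows elsewhere (higher). All genes called numbered 980 lower and 766 higher, against 532 and 290 with a filter of 5 FPKM, 205 and 168 with a fold threshold of 1, and 497 higher with a pseudocount of 1. Protein-coding hosts called lower numbered 1 with a fold threshold of 1, and 0 to 1 were higher with 1 library left out. SnoRNA rows inside members gave 1 lower without a filter and 1 higher in TPM, and 0 to 2 lower and 0 to 1 higher with 1 library left out. SnoRNA rows elsewhere called higher numbered 0 with a pseudocount of 0.01, no filter, a filter of 5 FPKM, TPM or no trend, 1 by voom and 0 to 3 with 1 library left out, and those called lower 0 to 1. The cause of these shifts was not tested.

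Same-numbered libraries did not deviate together (correlations of -0.0155, 0.00388 and 0.00383), so the numbers are not taken to pair them. With a replicate block, 967 genes were called lower and 719 higher, members stayed at 0 called and 3 lower and 3 higher at the adjusted p alone, protein-coding hosts at 10 lower, and snoRNA rows elsewhere gave 2 lower and 0 higher. Depth limits SNHG9, SNHG18, SNHG21, SNHG27 and the 6 members below the filter, whose reads per library were few.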
